A study of Homo sapiens with 4 samples.

Results

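The comparison was between the array labelled HCT116-CDX1 and the array labelled HCT116-Vec, 2 of the 4 arrays of the series. HCT116 is an established human colorectal carcinoma line. The remaining pair, LS174T-siVec and LS174T-siCDX1, came from a second colorectal cancer line and is used here for a few side values. The titles were read as HCT116 cells given CDX1 and HCT116 cells given a vector without it. The labels did not state the construct, the promoter that drives it, the time since its introduction, or whether either line was 1 clone, and clone, culture and CDX1 cannot be told apart. Each line was measured on 1 array, so no difference below has a replicate check, no test was possible, and precision is limited throughout by the number of arrays.

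The homeobox protein CDX1 is a transcription factor of gut epithelium. With its relative CDX2 it patterns the hindgut in the embryo and sustains the gut programme of gene expression in the adult. CDX proteins bind AT-rich DNA, and their known targets include genes of the mature enterocyte, among them KRT20, which encodes cytokeratin 20 of the upper crypt and the villus. Whether CDX1 regulates KRT20 was the question of the series.

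Expression was given as RMA values on the log2 scale and read for 19775 genes. Level means this log2 value, and difference means the HCT116-CDX1 level minus the HCT116-Vec level, so that 1 stands for 2-fold. A gene counted as measured where the brighter of both arrays was at least 6, and 16914 genes were measured. The words rose and fell are kept for measured genes that differed at least 2-fold. The array medians were 7.04 for HCT116-Vec and 7.06 for HCT116-CDX1, and Pearson r over probe sets was 0.988. The differences of 30 spike-in control probe sets had a standard deviation of 0.153, the largest being 0.364 in size, and the 3' minus 5' difference of GAPDH was -0.07 and -0.03.

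Both arrays carried general epithelial markers at high levels, while some listed markers, among them CDH17 and CDX2 of the gut, read low. All 12 epithelial markers were measured, with EPCAM, an epithelial adhesion molecule, at 12.82 and 12.84, and KRT18, a simple-epithelium keratin, at 13.37 and 13.74 in HCT116-Vec and HCT116-CDX1. CDH17 was the marker of the 12 that rose, from 6.19 to 7.49, and CDX2 also lay under 8 on both arrays. The lowest level of the 12 in HCT116-CDX1 was 6.89, in a further marker dimmer there than CDH17 and CDX2. The median difference of the 12 was 0.32. Of the fibroblast and smooth muscle markers 11 were measured, with a median difference of 0.11, of the endothelial markers 6 with 0.00, and of the leukocyte markers 7 with 0.02. In these 3 lists 0 genes rose or fell. PTPRC, the pan-leukocyte antigen, read 6.62 and 6.64, and CD3E, a T cell receptor chain, read 7.76 and 7.83. A level of up to 7.83 can therefore be read above the floor with no clear sign of expression. That is not an upper bound. The highest level in the endothelial list was 8.36 in HCT116-Vec and 8.58 in HCT116-CDX1. In the fibroblast and smooth muscle list it was 9.24 and 9.52. Whether these reflect expression was not tested. The brighter level lay under 8 for 25 of the genes that rose and 24 of those that fell, among them CDH17, HLA-DRA, HOXB8, NR5A2, SAMD9, IFIT1 and CYP1B1. In bulk RNA, fewer cells of a type and less RNA per cell cannot be told apart.

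The gene named in the label read almost the same on both arrays. CDX1 was read by 1 probe set at 8.21 in HCT116-Vec and 8.24 in HCT116-CDX1, a difference of 0.02. Both readings lay under the highest level in the endothelial list on the same array, 8.36 and 8.58. Whether either HCT116 line expressed CDX1 is therefore not clear from this probe set. The same probe set read 10.46 and 9.06 in LS174T-siVec and LS174T-siCDX1, so both HCT116 readings lay under both LS174T readings. Which part of the CDX1 transcript the probe set covers was not given in the sources used here. Every direction below rests on the label alone. KRT20 rose from 6.36 to 9.38, a difference of 3.03, and held rank 7 among all measured genes ordered from the highest difference down. CDX2 read 7.52 and 7.62, under the level of CD3E on both arrays.

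The KRT20 promoter is shown because KRT20 is the gene the series asked about, and because it holds 3 copies of TTTAT, the core of the AT-rich site that CDX proteins bind. The window is that of RefSeq on GRCh38.p14, chr17:40885193-40885492, minus strand, and runs from 250 bases before the transcription start to 50 after it. Capitals mark TTTAT on either strand, where ATAAA is its reverse complement. The first copy begins at position -235 and the last at -28, counted from the start. TTTAT is common and stood in 25.7% of the windows of measured genes. A match is a description and not a binding site, and which protein binds any of these copies was not tested.
KRT20: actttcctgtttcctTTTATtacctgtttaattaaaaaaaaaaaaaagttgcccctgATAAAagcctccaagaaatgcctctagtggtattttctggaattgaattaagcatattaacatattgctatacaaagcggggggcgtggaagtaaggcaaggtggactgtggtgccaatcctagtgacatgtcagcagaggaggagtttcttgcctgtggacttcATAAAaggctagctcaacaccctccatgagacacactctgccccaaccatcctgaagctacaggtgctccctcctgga

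Of the 16914 measured genes, 155 rose (0.916%) and 164 fell (0.97%), so that 319 differed at least 2-fold (1.89%). The median difference was -0.01, the quartiles were -0.21 and 0.16, and 8280 genes, or 49.0%, lay above 0. Large differences were few. 23 genes rose by at least 2 on the log2 scale and 10 fell by as much, and 7 and 3 passed a size of 3. NFE2L1 and ETV5 lay just inside the 2-fold limit among the rises, and HDAC9 and H2BC21 just outside it. NDUFB3 lay just inside and MT1HL1 just outside among the falls.

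The share of genes that rose or fell depended on how bright they were. Among 7091 genes whose brighter level was 6 to 8, 0.353% rose and 0.338% fell. Among 3402 genes at 10 to 12 these shares were 1.41% and 2.18%, the standard deviation of the differences was 0.473 against 0.251 in the dim class, and the median difference was -0.11 against 0.03. The counts in gene lists below are to be read with the levels given beside them. They are also to be read beside the shares over all measured genes, 0.916% that rose and 0.97% that fell. All lists were drawn up with results of these data known, so no list count is independent evidence. In 23 of the genes that rose and 15 of those that fell, 1 line read under 6, where the printed difference includes a reading of no clear signal.

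**Figure D1:**
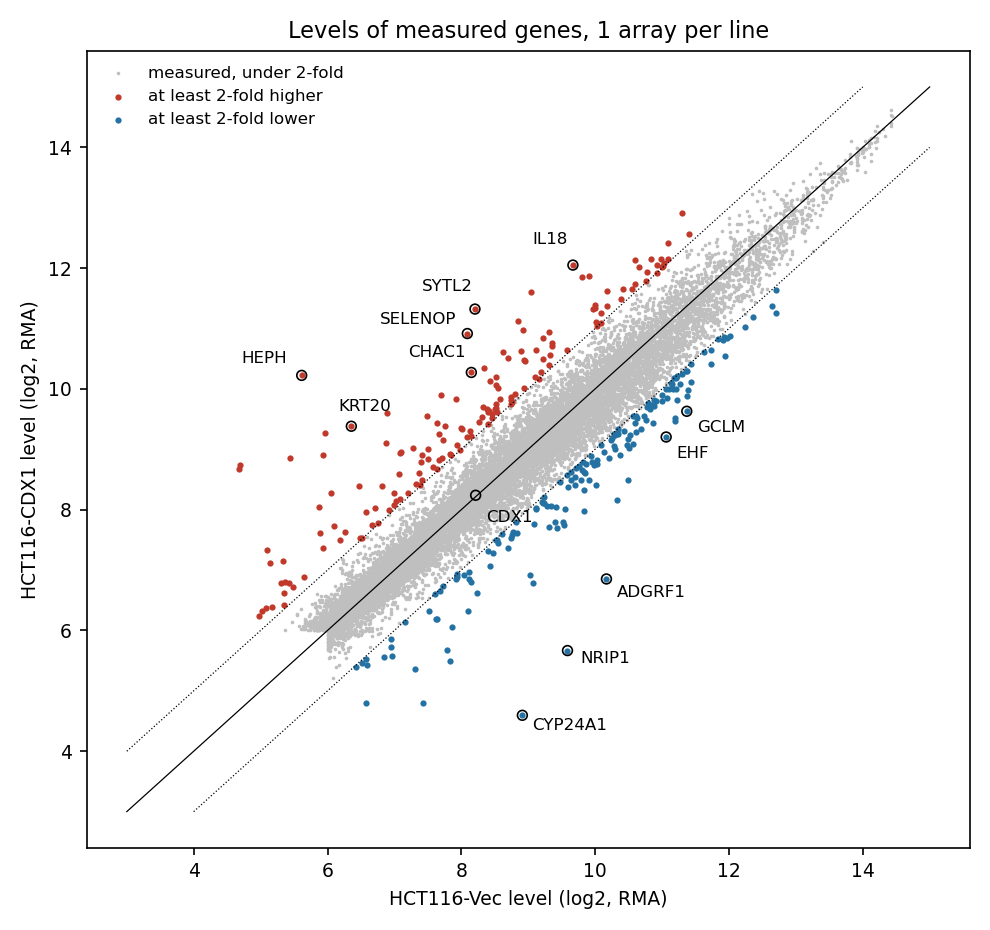
Level of each measured gene in HCT116-Vec (horizontal axis, log2 RMA) and in HCT116-CDX1 (vertical axis, log2 RMA), 1 point per gene and 1 array per line; the solid line is equality and the dotted lines are 2-fold. The 155 genes that rose are red and the 164 that fell are blue, and CDX1, at 8.21 and 8.24, sits on the line of equality while KRT20 sits at 6.36 and 9.38.

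The largest changes among genes with both levels at 6 or more fell in genes of quite different function. SYTL2, which encodes a RAB27 effector of vesicle docking, rose from 8.20 to 11.32. SELENOP, the secreted selenium carrier, rose from 8.09 to 10.92, and KRT23, an acidic keratin whose gene lies near that of KRT20, from 6.89 to 9.60. The other probe sets of SELENOP lay under 6 on both arrays. The matrix-binding anthrax toxin receptor gene ANTXR2 rose from 9.05 to 11.61. IL18, a cytokine that epithelial cells store as a precursor, rose from 9.67 to 12.05 and was the brightest of these genes. TBX3, a T-box repressor, rose from 8.85 to 11.12, the splicing regulator gene MBNL3 from 6.87 to 9.10, and the tetraspanin gene TSPAN8 from 6.05 to 8.27. MB21D2 at 2.20, CHAC1 at 2.12 and MATN2, a matrix adaptor protein gene, at 2.06 completed the 12 with KRT20.

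Among the falls, ADGRF1, an adhesion G protein-coupled receptor gene, went from 10.17 to 6.85. IKBIP fell from 9.08 to 6.79, the ubiquitin ligase gene MID1 from 10.33 to 8.15, ZNF512B from 9.03 to 6.92, and the epithelial membrane protein gene EMP1 from 10.49 to 8.49. COL12A1, a fibril-associated collagen gene, fell from 9.84 to 7.97 and EHF, an epithelial ETS factor gene, from 11.06 to 9.20. The noncoding RNAs DLGAP1-AS6, PRR34-AS1 and LINC00326 lay at -1.80, -1.79 and -1.79. GCLM, the modifier subunit of the first enzyme of glutathione synthesis, fell from 11.37 to 9.63 and SYBU, a kinesin linker gene, from 9.43 to 7.69.

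Several larger differences rested on a dimmer array under the floor. HEPH, the copper ferroxidase hephaestin, read 5.61 and 10.22, and its second probe set read 5.77 and 5.69, under the floor on both arrays. CCND2 read 4.69 and 8.74, MMP1 4.68 and 8.67, and CCL20 5.45 and 8.86. CYP24A1 read 8.91 in HCT116-Vec and 4.59 in HCT116-CDX1, and NRIP1 9.59 and 5.67. In the probe set read for each of these genes, 1 line read above the floor and the other under it. The brighter readings of CCND2, MMP1 and CCL20 lay under the highest fibroblast and smooth muscle marker level in HCT116-CDX1, 9.52. That of CYP24A1 lay under the highest such level in HCT116-Vec, 9.24. The other measured probe sets of CCND2 lay above the floor on both arrays, and the brightest of them in this pair differed by -0.11.

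Probe sets of the same gene give a second reading from the same 2 RNA samples, not a replicate. Of the 319 genes, 161 had at least 2 measured probe sets. All of them lay on the same side of 0 in 132 genes and on both sides in 29, and in 0 genes did probe sets change in both directions. In 45 genes every measured probe set was at least 2-fold apart in the same direction, 23 upward and 22 downward. The other 158 changed genes had 1 measured probe set. Over all measured probe sets, 303 of 32467 were at least 2-fold higher (0.933%) and 277 at least 2-fold lower (0.853%).

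The rises seen by every probe set included CLMP, an adhesion molecule of the tight junction family, at 3.31 and 5.13. The 3 probe sets of SYTL2 ranged from 2.26 to 3.12, the 3 of SLC7A11 from 2.00 to 2.06, and the 4 of ANTXR2 from 1.30 to 2.56. KLF5, a Kruppel-like factor of crypt cells, stood at 1.87 and 2.05, and BHLHE40, a circadian and hypoxia-responsive repressor, at 1.87 and 1.96. HLA-DRA, MKX, TMEM41B, AGPAT4, FAM83B and HOXB9 followed with medians from 1.96 down to 1.48. Each was at least 2-fold higher in every one of its measured probe sets.

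The falls seen by every probe set were led by NRIP1, a nuclear receptor corepressor, at -4.31 and -3.92. The 3 probe sets of GCLM ranged from -1.92 to -1.74, those of ENC1, a Kelch protein gene of the Wnt response, stood at -2.26 and -1.43, and those of AP1S1 ranged from -1.84 to -1.21. ZNF512B, IKBIP, VSNL1, SFR1, MT1F, MT1E, MTFR2 and ACSL5 followed with medians from -1.66 to -1.27. VCAN, the matrix proteoglycan versican, was lower in all 5 of its probe sets, from -1.77 to -1.04. Elsewhere the probe sets disagreed. The 4 of CCND2 ranged from -0.11 to 4.05, the 6 of EMP1 from -2.29 to 0.19, the lowest of the 5 of ETV5 at -0.14, and the 5 of TBX3 from 0.07 to 2.27, so the value of such a gene depends on the probe set read.

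**Figure D2:**
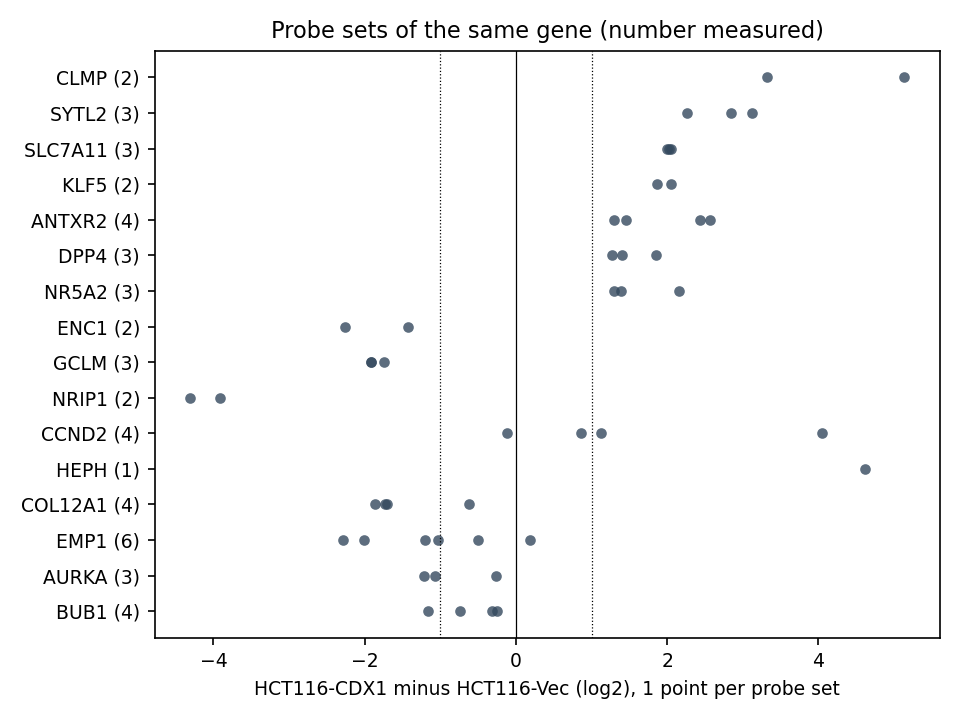
Difference HCT116-CDX1 minus HCT116-Vec (log2, horizontal axis) for each measured probe set of 16 genes, with the number of measured probe sets in parentheses, 1 point per probe set; dotted lines mark 2-fold. The 3 points of SLC7A11 lie from 2.00 to 2.06 and the pair of NRIP1 at -4.31 and -3.92, whereas those of CCND2 spread from -0.11 to 4.05.

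Genes of the ATF4 amino acid response were higher on the array labelled HCT116-CDX1. ATF4 is a transcription factor that is translated when amino acids run short or the endoplasmic reticulum is stressed, and its targets import and make amino acids. Of 36 measured members 11 rose, 0 fell and 33 were above 0 with a median difference of 0.69 beside -0.01 for all measured genes. The lowest member, EIF4EBP1, stood at -0.12. The list was drawn up with results of these 2 arrays in view, so its direction is not independent evidence.

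The promoters of CHAC1 and ASNS are shown because both genes rose and both windows hold TGATGNAA, the core of the composite C/EBP and ATF element at which ATF4 acts with a C/EBP partner. Capitals mark that core on either strand, at position -209 in CHAC1 and -68 in ASNS counted from the start. The windows are RefSeq's on GRCh38.p14, chr15:40953221-40953520 on the plus strand and chr7:97872359-97872658 on the minus strand.
CHAC1: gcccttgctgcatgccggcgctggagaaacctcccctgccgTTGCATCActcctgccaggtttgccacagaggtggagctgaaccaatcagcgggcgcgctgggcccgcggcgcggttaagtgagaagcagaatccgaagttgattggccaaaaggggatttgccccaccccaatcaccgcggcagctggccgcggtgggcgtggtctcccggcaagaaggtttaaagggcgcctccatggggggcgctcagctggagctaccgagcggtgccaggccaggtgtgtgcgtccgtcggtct
ASNS: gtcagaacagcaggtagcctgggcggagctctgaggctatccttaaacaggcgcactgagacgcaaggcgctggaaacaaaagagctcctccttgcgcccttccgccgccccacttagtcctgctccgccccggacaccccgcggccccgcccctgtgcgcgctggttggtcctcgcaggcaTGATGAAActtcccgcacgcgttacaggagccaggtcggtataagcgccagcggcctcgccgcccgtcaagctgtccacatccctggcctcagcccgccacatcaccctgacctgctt

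Some enzymes of the group rose and others stayed under 2-fold. CHAC1, which degrades glutathione, rose from 8.15 to 10.27. ASNS, asparagine synthetase, rose from 11.31 to 12.91, and PHGDH, the first enzyme of serine synthesis, from 10.42 to 11.66. Both started well above the array median in HCT116-Vec. PCK2, the mitochondrial phosphoenolpyruvate carboxykinase, rose from 8.43 to 10.14. Other enzymes of the same routes stayed under 2-fold, with CTH, the cystathionine lyase of cysteine synthesis, at 0.95 and PSAT1 of serine synthesis at 0.83.

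Among the amino acid transporters, the cystine importer gene SLC7A11 rose from 8.92 to 10.98, the neutral amino acid transporter gene SLC1A4 from 8.13 to 9.31, and the cationic amino acid transporter gene SLC7A1 from 11.09 to 12.16. SLC3A2 and SLC7A5, the chains of the leucine transporter, went from 10.68 to 11.58 and from 12.34 to 13.23, differences of 0.90 and 0.89. The transporters thus lay between 0.89 and 2.06 in these 5 genes. The regulators DDIT4, JDP2, TRIB3 and DDIT3 rose by 1.32, 1.56, 1.13 and 1.03. ATF4 itself, which is controlled mainly in translation, read 12.52 and 13.14, a difference of 0.62, and its partner gene CEBPG differed by 0.84. ATF3, a stress-induced relative, differed by 0.18.

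**Figure D3:**
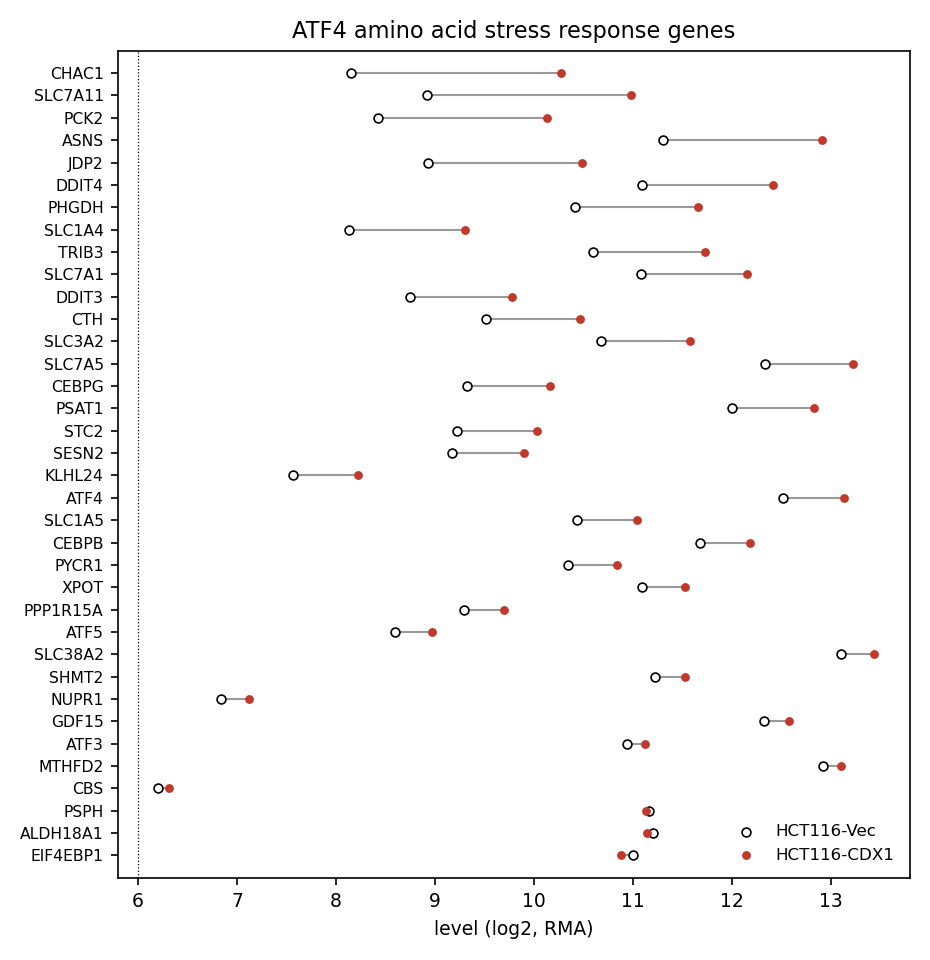
Levels (log2 RMA, horizontal axis) of the 36 measured ATF4 response genes in HCT116-Vec (open circles) and HCT116-CDX1 (filled circles), 1 array each, ordered by difference; the dotted line at 6 is the floor of a measured gene. The filled circle lies to the right in 33 genes, farthest in CHAC1 at 8.15 and 10.27.

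The cytosolic aminoacyl-tRNA synthetases, which charge tRNAs and of which many are ATF4 targets, were split. Of 17 measured genes 0 rose and 0 fell, 11 lay above 0 and the median was 0.37. AARS1 at 0.93, SARS1 at 0.88, CARS1 at 0.87, GARS1 at 0.72 and TARS1 at 0.72 stood highest. FARSA at -0.37 and KARS1 at -0.35 stood lowest. The chaperone side of the stress response held fewer 2-fold changes than the amino acid list. Of 29 measured genes of endoplasmic reticulum chaperones and the unfolded protein response, 0 rose and SDF2L1, a chaperone cofactor gene, fell from 10.29 to 9.06. The median was 0.18. HSPA5, the chaperone BiP, differed by 0.31, the sensor gene ERN1 by 0.65, XBP1 by 0.62, HERPUD1 of the degradation pathway by 0.86 and CRELD2 by -0.50. The difference between these lists was not tested.

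Genes of cholesterol synthesis and uptake were also higher as a list. They share control by SREBP2, a membrane-bound transcription factor released when sterols fall. Of 22 measured members 4 rose, 0 fell and 20 were above 0 with a median of 0.53. These rises were 18.2% of the list, beside 0.916% of all measured genes. INSIG1, which retains the SREBP complex in the endoplasmic reticulum, rose from 10.09 to 11.26. MSMO1, a sterol demethylation enzyme, rose from 10.92 to 12.06, and SQLE, squalene epoxidase, by 1.03 to 12.02. STARD4, a sterol carrier, rose from 10.01 to 11.11. The 4 probe sets of SQLE ranged from 0.85 to 1.73 and the 3 of INSIG1 from 0.81 to 1.17. DHCR7 stood at 0.91, SREBF2 at 0.82, SREBF1 at 0.80 and EBP at -0.24.

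Of 16 measured genes of fatty acid synthesis and activation, 1 rose and 1 fell, 13 had a difference above 0, and the median was 0.29. Both that changed were acyl-CoA synthetases, which activate long-chain fatty acids. ACSL1 rose from 7.72 to 9.15, while ACSL5, the form abundant in intestinal epithelium, fell from 11.73 to 10.41. The probe sets of each gene kept its sign, from 1.43 to 1.49 for ACSL1 and from -1.32 to -1.22 for ACSL5. SCD differed by 0.61 and FASN by 0.47.

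Listed genes of mitosis and the spindle checkpoint were mostly lower on the array labelled HCT116-CDX1, by less than 2-fold in all but 3 of them. Of 50 measured genes of mitosis and the spindle checkpoint, 3 fell, 0 rose and 48 lay below 0, with a median of -0.52 beside -0.11 for all genes whose brighter level was 10 to 12. The CDC20 promoter is shown as an example because this gene fell and its window holds TTTGAA, the core of the cell cycle homology region of late cell cycle genes, on both strands. Capitals mark the core, at -178 and -65 from the start, in RefSeq's window on GRCh38.p14, chr1:43358731-43359030, plus strand.
CDC20: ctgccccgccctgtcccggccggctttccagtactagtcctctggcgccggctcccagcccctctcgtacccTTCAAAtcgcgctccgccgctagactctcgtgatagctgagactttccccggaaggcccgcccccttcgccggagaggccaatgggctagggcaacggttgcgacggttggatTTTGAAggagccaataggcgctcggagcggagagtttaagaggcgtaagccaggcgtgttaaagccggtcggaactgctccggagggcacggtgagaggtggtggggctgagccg

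AURKA, a kinase of the spindle poles, fell from 11.21 to 9.99. BUB1, a kinase of the spindle checkpoint, fell from 10.87 to 9.71, and CDC20, the activator of the anaphase-promoting complex, from 11.97 to 10.84. CDC20 had 1 probe set. The dimmer probe sets of the other 2 differed less, down to -0.27 in AURKA and -0.25 in BUB1. CCNB1, the mitotic cyclin, went from 11.90 down by a difference of -0.90, PTTG1, securin, from 12.49 to 11.61, and the kinesin gene KIF20A from 10.33 to 9.45. MKI67, the proliferation antigen Ki-67, at 0.04 and CDC25C, a mitotic phosphatase, at 0.17 were the members above 0.

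**Figure D4:**
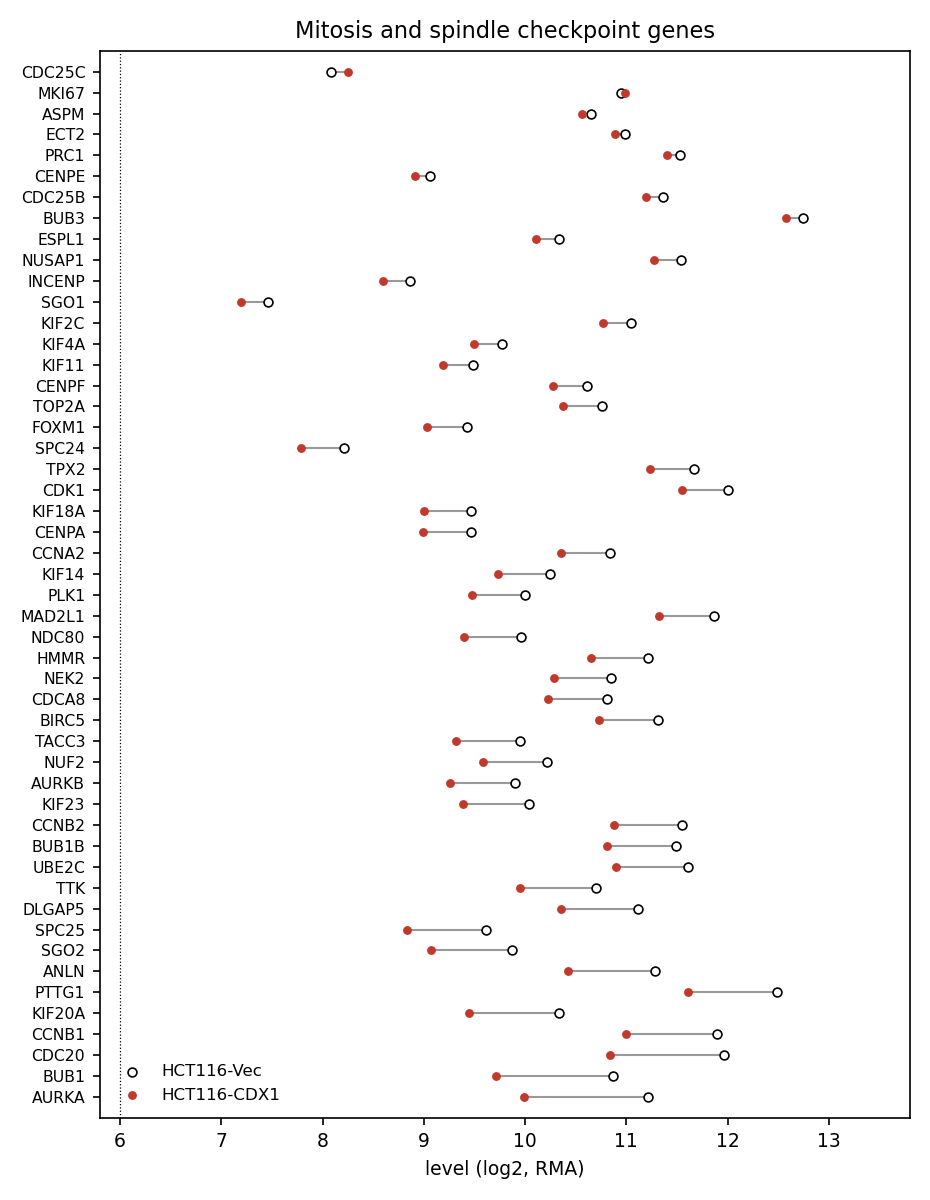
Levels (log2 RMA, horizontal axis) of the 50 measured genes of mitosis and the spindle checkpoint in HCT116-Vec (open circles) and HCT116-CDX1 (filled circles), 1 array each, ordered by difference; the dotted line at 6 is the floor of a measured gene. The filled circle lies to the left in 48 genes, and AURKA, BUB1 and CDC20, at -1.22, -1.16 and -1.12, are the members at least 2-fold apart.

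Of 42 measured genes of DNA replication and the G1/S step, 1 fell, 0 rose and 4 lay above 0, with a median of -0.38. POLE2, a subunit of the leading-strand polymerase, fell from 10.60 to 9.43. PCNA, the sliding clamp, went from 12.91 to 12.16, and GINS4 and ORC1 of the replication start stood at -0.79 and -0.75. CDKN3, a phosphatase gene of the cell cycle outside these lists, was lower in both of its probe sets, at -1.20 and -1.17. Other cell division genes outside the lists fell too, among them CENPW, CENPX, OIP5 and GMNN. The 5 measured DNA mismatch repair genes all lay below 0, with a median of -0.19 and 0 at least 2-fold apart.

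The cell cycle genes that act before replication differed in both directions. Among 15 measured D-type cyclins, their kinases and CDK inhibitors, CCND2 read 4.69 and 8.74, 0 fell and the median was -0.05. The CCND2 difference was 2.74 with the level under 6 set to 6. Its probe set brightest in this pair gave -0.11, within the spike-in SD of 0.153, so its rise depends on the probe set. CCND1, another D cyclin gene, differed by 0.31, CDK6 by -0.75 and the inhibitor gene CDKN1A by -0.51. The median of replication-type histone genes, which are transcribed in S phase, lay on the other side of 0 from that of the replication genes. This contrast was not tested, and 14 of the 35 histone genes read lay under 6 on both arrays. Of 21 measured, H2AC6 rose from 8.52 to 9.75, 0 fell, 15 lay above 0 and the median was 0.17. H2BC21 lay just under 2-fold, and H2BC6 and H2BC5 stood at 0.99 and 0.97. These genes are near-identical in places, so their probe sets may not be separate readings. Of 23 measured p53 targets, 0 rose and 2 fell, with a median of -0.31. PLK2 fell from 11.19 to 9.47 and the pro-apoptotic gene BAX from 8.60 to 7.60. MDM2, the p53 ligase gene, stood at -0.44.

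Metallothioneins, small cysteine-rich proteins that bind zinc and copper, were lower. Of 8 measured members 4 fell, 0 rose and all 8 lay below 0, with a median of -1.08. The MT1X promoter is shown because the gene fell and its window holds 4 copies of TGCACNC or TGCGCNC, the core of the metal response element bound by MTF1. Capitals mark the core on either strand, from -150 to -53 counted from the start, in RefSeq's window on GRCh38.p14, chr16:56682220-56682519, plus strand.
MT1X: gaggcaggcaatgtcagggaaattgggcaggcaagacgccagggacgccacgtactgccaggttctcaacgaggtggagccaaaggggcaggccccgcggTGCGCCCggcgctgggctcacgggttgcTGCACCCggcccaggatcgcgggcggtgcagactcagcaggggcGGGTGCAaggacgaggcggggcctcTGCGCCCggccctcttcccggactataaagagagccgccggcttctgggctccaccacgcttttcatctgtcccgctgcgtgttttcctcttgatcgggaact

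MT1E fell from 12.71 to 11.26, MT1F from 11.44 to 10.11, MT1H from 12.25 to 11.03 and MT1X from 12.36 to 11.19. MT2A, the most widely expressed member, went from 13.41 to 12.42 and MT1G from 11.06 to 10.10, differences of -0.98 and -0.95 that lie just under 2-fold. MT3 and MT4, which are chiefly expressed in brain and in stratified epithelium, stood at -0.15 and -0.09. The genes of this cluster are so alike that their probe sets can share transcripts. Without probe sets marked as shared, 3 of the 8 members had a reading, MT1G, MT3 and MT4, with a median of -0.09, and the 4 genes that fell had none. The zinc transporters were all within 2-fold. Of 20 measured zinc transporters 0 rose and 0 fell, with a median of 0.05. SLC30A1, the zinc exporter that MTF1 controls, differed by -0.07 and MTF1 itself by -0.20.

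Iron and copper genes differed in single members. Of 30 measured, HEPH rose, as did SELENOP, the selenium carrier gene that the list also holds. STEAP1, a gene of the STEAP metalloreductase family, fell from 10.61 to 9.28. The median was 0.02. The copper chaperone gene ATOX1 differed by -0.94 and the ferritin light chain gene FTL by -0.43. SLC40A1, the iron exporter that works with hephaestin, differed by 0.14 and the transferrin receptor gene TFRC by -0.07.

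Antioxidant and xenobiotic genes were mostly lower. NRF2 is the factor that induces glutathione and detoxification genes under oxidative stress, and the aryl hydrocarbon receptor induces CYP1 genes. Of 27 measured members 4 fell, 2 rose, 7 were above 0 and the median was -0.31. GCLM fell from 11.37 to 9.63, PIR from 9.90 to 8.49 and the bile conjugate pump gene ABCC2 from 10.13 to 8.96. CYP1B1 read 6.52 and 5.46, and its brightest reading in this pair, from another probe set, gave 0.05. HMOX1 at -0.86 and NQO1 at -0.62 lay under 2-fold. SLC7A11 and the pump gene ABCC3, from 8.94 to 10.01, were the members that rose. SLC7A11 stands in the ATF4 list too, and the 5 probe sets of ABCC3 ranged from 0.10 to 1.07. NFE2L2, which encodes NRF2, differed by 0.18.

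**Figure D5:**
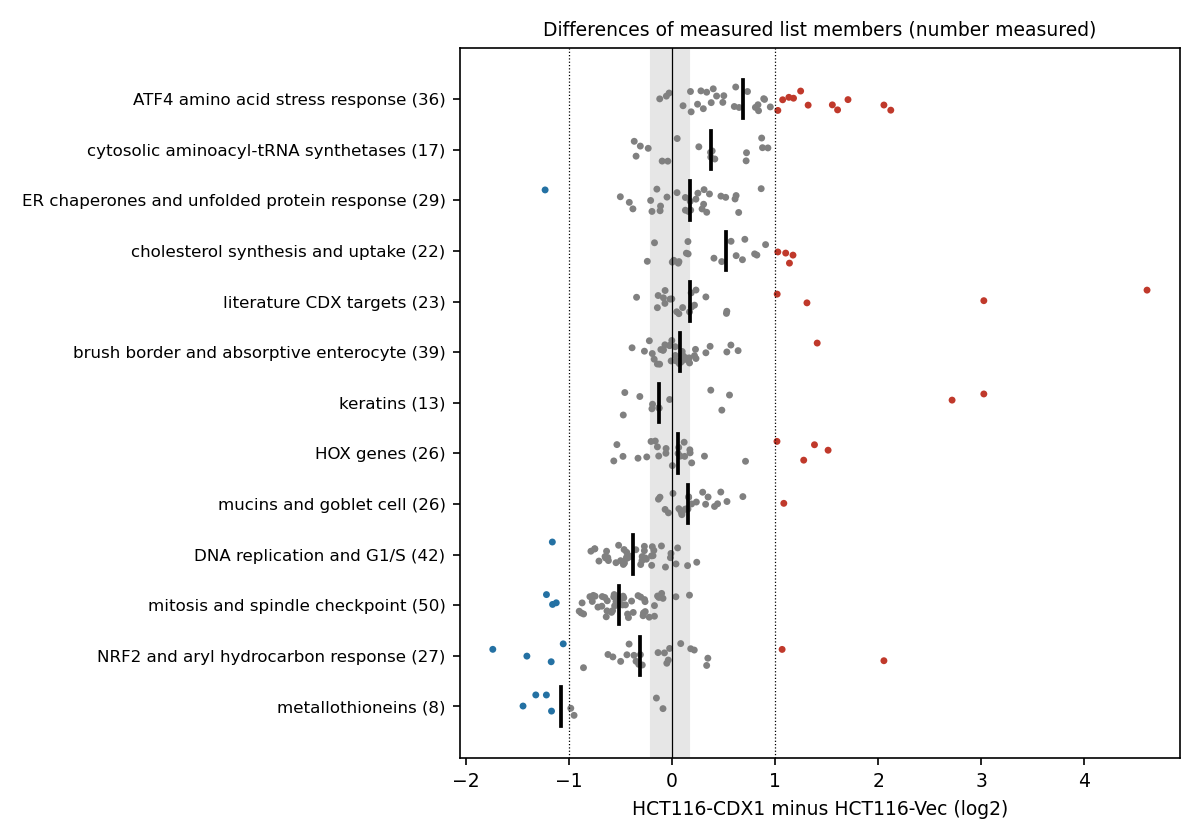
Difference HCT116-CDX1 minus HCT116-Vec (log2, horizontal axis) of each measured member of 13 gene lists, 1 point per gene with vertical scatter for legibility, number measured in parentheses; the black bar is the list median, the grey band runs between the quartiles of all measured genes, -0.21 and 0.16, and dotted lines mark 2-fold. The ATF4 median of 0.69 and the cholesterol median of 0.53 lie right of the band, and those of mitosis, -0.52, and metallothioneins, -1.08, lie left of it.

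The share of intestinal differentiation genes that rose differed between lists. Of 23 measured genes reported elsewhere as CDX targets, 4 rose, 0 fell and 15 were above 0 with a median of 0.17. The 4 were 17.4% of the list, beside 0.916% of all measured genes. This list holds KRT20 and HEPH and was drawn up with results of these data known, so its share is not independent evidence. HEPH and KRT20 led, CDH17, the liver-intestine cadherin, rose from 6.19 to 7.49, and DSC2, a desmosomal cadherin, from 10.03 to 11.05. Of 39 measured genes of the brush border and the absorptive enterocyte, DPP4, a membrane peptidase, rose from 9.35 to 10.76 and the rest stayed within 2-fold around a median of 0.08. That rise was 2.56% of the list. The 3 probe sets of DPP4 ranged from 1.27 to 1.86. USH1C, a microvillar link protein gene, stood at 0.64 and ENPEP, another peptidase gene, at 0.57.

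Of 13 measured keratins, KRT20 and KRT23 rose and the other 11 stayed within 2-fold, around a median of -0.13. KRT8 and KRT18, the partner keratins of simple epithelium, differed by 0.48 and 0.38, KRT80 by 0.56 and KRT15 by -0.47. Of 26 measured mucin and goblet cell genes, 22 lay above 0 with a median of 0.16, and GCNT3, a mucin core glycan enzyme gene, rose from 7.41 to 8.50. MUC13, a transmembrane mucin gene, differed by 0.69.

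Of 26 measured HOX genes, which set position along the body axis, 4 rose and 0 fell, and the 4 belong to the HOXB cluster. These rises were 15.4% of the list, beside 0.916% of all measured genes. HOXB9 rose from 8.95 to 10.46, HOXB6 from 8.32 to 9.70, HOXB5 from 8.39 to 9.67 and HOXB8 from 6.51 to 7.53. Of the 10 measured HOXB genes 9 lay above 0, with a median of 0.51. The 8 measured HOXC genes had a median of -0.15 and the 7 HOXD genes 0.00, with 0 rises in each, and the 1 measured HOXA gene stood at -0.54. HOXB7, between HOXB6 and HOXB8, read 10.79 and 11.10, a difference of 0.31.

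Of 28 measured intestinal transcription factor genes, 2 rose and 1 fell, with a median of 0.03. KLF5, a factor of proliferating crypt cells, rose from 9.80 to 11.85, and NR5A2, a nuclear receptor of crypt renewal and bile acid control, from 6.57 to 7.97. EHF fell from 11.06 to 9.20, with its 6 measured probe sets from -1.90 to 0.14 and the highest value in the dimmest of them. MYB, SOX9 and GATA6 stood at -0.77, -0.64 and -0.58.

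Adhesion genes held several rises. Of 22 measured cadherin and desmosome genes 3 rose and 0 fell, with a median of 0.12. JUP, plakoglobin, which links desmosomal and classical cadherins to the cytoskeleton, rose from 10.66 to 12.02 beside CDH17 and DSC2. CDH1, E-cadherin, went from 10.59 to 11.41, a difference of 0.82. Of 25 measured tight junction genes CLMP rose from 5.96 to 9.27 and 0 fell, with CLDN3 at -0.75 and a median of -0.03. Of 38 measured collagen, laminin and integrin genes 3 rose, 1 fell and 29 were above 0 with a median of 0.20. One of the 3 was ANTXR2, a matrix-binding receptor gene of none of these families that the list also holds. ITGA2, the collagen-binding integrin chain, rose by 1.39 to 11.39, and LAMB3, an epithelial laminin chain, from 8.46 to 9.59. COL12A1 was the member that fell. COL4A5 and COL6A2, the latter at 0.99, lay just under 2-fold. Of 28 measured matrix proteases and inhibitors MMP1 rose, 0 fell and the median was 0.06, with SERPINB5, maspin, at -0.89 and TIMP1 at 0.26. All 15 measured Eph receptor and ephrin genes stayed within 2-fold, with a median of 0.05.

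Immune genes changed in single members. Of 17 measured chemokine and receptor genes, CCL20, which draws CCR6-bearing lymphocytes to mucosa, rose and 0 fell, with CXCL1 at 0.65 and a median of 0.16. Of 28 measured interleukin and NF-kappaB genes IL18 rose and 0 fell, with a median of 0.12. Of 25 measured antigen presentation genes 18 lay above 0, with a median of 0.22. HLA-DRA, the alpha chain of the class II receptor HLA-DR, rose from 6.09 to 7.72, while PSMB10, an immunoproteasome subunit gene, fell from 8.83 to 7.61. The class I genes HLA-B and HLA-F differed by 0.74 and 0.71. Of 30 measured interferon-stimulated genes 1 rose and 2 fell, with a median of 0.08. SAMD9 rose by 1.01, and ISG15, a ubiquitin-like modifier, fell from 12.01 to 10.87 and IFIT1 from 7.92 to 6.85.

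The signalling lists held changes in both directions. Of 28 measured genes of RAS-MAPK output and feedback, 2 rose and 1 fell, with a median of 0.24. SPRY4, a feedback inhibitor of receptor signalling, rose from 10.17 to 11.63 and ETV5, an ETS factor, from 10.08 to 11.08, while EMP1 fell. Without shared probe sets ETV5 stood at -0.14, within the spike-in SD of 0.153, so its rise is not seen there. Of 33 measured TGF-beta and BMP genes 2 rose and 1 fell, with a median of 0.09. The repressor gene SKIL rose from 7.64 to 9.43 and the inhibitory SMAD gene SMAD7 from 6.99 to 8.07. BAMBI, a decoy receptor of the family that is also a Wnt target, fell from 10.37 to 8.90, and TGFBR2, the type II receptor gene, stood at -0.97. Of 25 measured Wnt target and feedback genes 0 rose and 3 fell, namely BAMBI, VSNL1 from 9.70 to 8.54 and NKD2, an inhibitor of Dishevelled, from 9.22 to 8.10. The Wnt median was 0.02, with AXIN2, the usual readout of the pathway, at 0.10 and the antagonist gene DKK1 at 0.83.

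Of 31 measured genes of vitamin D, retinoids and nuclear receptor coregulators, 1 rose and 2 fell, with a median of -0.08. CYP24A1, which inactivates vitamin D and is a classical target of its receptor, fell from 8.91 to 4.59 and NRIP1 from 9.59 to 5.67. The activating enzyme gene CYP27B1 differed by -0.87, the receptor gene VDR by -0.26 and PPARG by -0.93. PPARA rose by 1.09 as read, with 6 probe sets from -0.05 to 1.09. Of 33 measured hypoxia and glycolysis genes ALDOC, a glycolytic aldolase, rose from 9.96 to 11.32 and VEGFA from 10.39 to 11.50, 0 fell and the median was -0.02. The 4 probe sets of VEGFA ranged from 0.93 to 1.16. Of 24 measured S100 and annexin genes 2 rose and 1 fell, with a median of -0.17. S100A14 and ANXA10 rose by 1.02 each, S100A10, the light chain partner of annexin A2, fell from 12.65 to 11.37, and ANXA1 stood at -0.97.

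Promoter letters were counted in the RefSeq windows, 34961 in all and 18902 for measured genes, where a gene can have several windows. A match here is a description and not a binding site. TTTAT stood in 25.7% of the windows of measured genes, in 36.3% of 179 windows of genes that rose and in 22.8% of 180 windows of genes that fell. Of all windows, 34.8% held it. By gene, 50 of the 115 that rose and had a window held it, and 36 of the 130 that fell. Among the genes that rose, KRT20, HEPH, CCL20, SELENOP, ANTXR2, TSPAN8, MBNL3 and KLF5 had at least 1 window with it. Among those that fell, ADGRF1, EHF, PDE4B, SGK1 and MT1X did. The window of MBNL3 with most copies held 6, and that of SGK1 held 5.

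TGATGNAA stood in 2.53% of the windows of measured genes and 3.62% of all windows. It stood in 9 of 49 windows of the ATF4 list, or 18.4%, in 6 of 19 windows of the tRNA synthetases, or 31.6%, and in 7.26% of windows of genes that rose against 4.44% for genes that fell. Beside CHAC1 and ASNS, the ATF4 list members JDP2, SLC1A4 and SLC7A1 rose and had it. TTTGAA stood in 11.3% of windows of measured genes and 15.2% of all, and in 32 of 54 windows of the mitosis list, or 59.3%, but in 1 of 47 of the replication list, or 2.13%. CCAAT, the NF-Y box, stood in 34.2% of windows of measured genes and 34.6% of all, in 77.8% of mitosis windows, 59.6% of replication windows and 69.2% of the 26 cholesterol windows. The sterol element TCACNCCAC stood in 1 of those 26 and in 1.13% of all windows. TGCACNC or TGCGCNC stood in all 4 metallothionein windows, in 34.8% of windows of measured genes and in 29.6% of all. Both strands were read for each, and matches of different elements were counted separately where they overlapped.

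Most genes that changed in HCT116 stayed within 2-fold in the LS174T pair. There the difference is siVec minus siCDX1, so that it runs with the CDX1 label in both pairs, and 211 of 16896 measured genes were at least 2-fold higher (1.25%) and 101 at least 2-fold lower (0.598%). Of the 155 genes that rose in HCT116, 131 were measured in LS174T, where 18 were at least 2-fold higher in siVec, 5 lower and 108 within 2-fold, with a median of 0.18. IL18, at 8.82 and 7.05 in siVec and siCDX1, and KRT20, at 8.15 and 5.45, were among the 18. HEPH was not, at 10.72 and 10.03. Of the 164 genes that fell in HCT116, 141 were measured in LS174T, where 2 were at least 2-fold lower, 4 higher and 135 within 2-fold, with a median of 0.07. ATF4 itself read 12.69 and 12.80 there.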

How the data were processed

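RNA of 4 lines was measured on 1 Affymetrix array each, from 2 µg of total RNA per the labels' protocols. The authors used RMA, per the submitters' processing notes, and the deposited values are log2 expression of 54675 probe sets. For RMA, neither the version nor the set of arrays it was run on is given in the sources used here. RMA equalises the distributions of arrays, so a change shared by most genes would not be seen.

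From the platform annotation 41097 probe sets had 1 gene, 1801 several and 11777 none listed, and 41043 matched RefSeq (GRCh38.p14) by gene identifier. Where a gene had several probe sets, the one brightest on average over the 4 arrays was used. The floor was 6 on the brighter array and the limit 2-fold. Windows came from RefSeq promoters. The 40 gene lists, 1062 genes of which 966 were read, and the 2 arrays compared were chosen with earlier results of these data known. Named were CDX1 and KRT20, the 12 largest differences per direction with both levels at 6 or more, the 12 largest per direction read alike by every probe set, up to 6 changed members and the role-defining members of each list, changed neighbours, and up to 5 genes per direction that moved oppositely in LS174T. Genes named beyond this were chosen after their values were seen. Alternatives were a floor of 7 or none, quantile normalization, equal medians, loess removal (span 0.3), the mean of probe sets, the brightest probe set in the pair, no shared probe sets, levels under 6 set to 6, and limits of 1.5-fold and 3-fold. No p-value was computed, and the counting was tested on simulated data. Python 3.11.15, numpy 2.4.6, pandas 2.3.3 and statsmodels 0.14.6 were used.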

Additional observations from a re-analysis of the deposited data

Results flagged for a closer look

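9 genes changed in HCT116 and ran at least 2-fold the other way against the CDX1 label in LS174T, where the difference is siVec minus siCDX1. These differences between the pairs were not tested, and each rests on 1 array per line. The siVec level lay under 6 for MATN2, FAM241A, NAP1L5 and LONRF1, so their LS174T values include a reading of no clear signal; with levels under 6 set to 6 they ran from -2.11 in FAM241A to -1.10 in MATN2. Among genes that rose in HCT116, MATN2 stood at 2.06 there and -1.48 in LS174T, FAM241A at 1.74 and -3.00, and NAP1L5, an imprinted nucleosome assembly gene, at 1.10 and -2.03. LONRF1, a ubiquitin ligase gene, stood at 1.09 and -1.56, and BDH2, a siderophore synthesis dehydrogenase gene, at 1.01 and -1.23. Among genes that fell in HCT116, S100A10 stood at -1.27 and 2.03, CLU, the chaperone clusterin, at -1.17 and 1.91, RAMP1, a partner of the calcitonin receptor-like receptor, at -1.11 and 2.37, and CAP2, an actin regulator, at -1.07, with an LS174T level of 7.15 in siVec and one under 6 in siCDX1, or 1.15 with that level set to 6. The 4 probe sets of CLU ranged from -1.17 to 0.17 in HCT116 and those of LONRF1 from 0.13 to 1.09.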

How the results depend on the processing

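At a limit of 1.5-fold 570 genes were higher and 1033 lower, and at 3-fold 43 and 26, beside 155 and 164 at 2-fold. Under the 9 other settings at 2-fold the count of higher genes ran from 120 to 168 and that of lower genes from 127 to 177; higher genes were 44.9% to 54.2% of those called, beside 48.6%. CCND2 at -0.11 and CYP1B1 at 0.05 changed sign when read from the brightest probe set in the pair, and ETV5 at -0.14 and ATXN1 at -0.01 without shared probe sets. Each of these values was smaller in size than the spike-in SD of 0.153, so they show no clear difference and not a reversal. Of the 122 named genes that changed, 93 stayed at least 2-fold apart under each of the 9 settings that gave a value. A setting in which a gene was not measured was left out and did not count against it. Without shared probe sets this held for HEPH and SELENOP, among others, whose remaining probe sets lay under 6 on both arrays. List medians moved by less than the spike-in SD of 0.153 in 356 of 360 cases; without shared probe sets the 3 metallothioneins left of 8, none of them a gene that fell, were at -0.09, the 16 cholesterol genes left of 22 at 0.69 and the 22 NRF2 genes left of 27 at -0.11, and histones at a floor of 7 at 0.69. No paired analysis was possible because each group had 1 array and the labels give no replicate numbers, and no replicate could be left out. Signal over the floor limits the 38 changed genes whose dimmer level lay under 6.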

Other observations

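Genes that changed alike sometimes lay side by side. With 16883 measured genes placed in the RefSeq gene order, 15 pairs of neighbours changed in the same direction, 7 upward and 8 downward, and the longest run was 2. The upward pairs were IL18 with BCO2, a carotenoid oxygenase gene, KRT20 with KRT23, HOXB5 with HOXB6, HOXB8 with HOXB9, CCL20 with DAW1, AADACP1 with AADAC, an esterase gene, and ATXN1 with ATXN1-AS1. BCO2 rose from 6.99 to 8.28 and AADAC from 7.07 to 8.59. The downward pairs were MT1E with MT1F, MT1H with MT1X, GIHCG with ATP23, GPN3 with FAM216A, SCG2 with AP1S3, LYRM4 with FARS2, RBM24 with CAP2, and ADGRF1 with TNFRSF21. With levels under 6 set to 6, a member of 4 of the pairs was under 2-fold: DAW1 at 0.24, AADACP1 at 0.79, ATXN1-AS1 at 0.62 and GIHCG at -0.95. The metallothioneins are near-identical and ATXN1-AS1 is antisense to ATXN1, so their readings are uncertain as separate ones.

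In blocks of 50 consecutive measured genes, 325 in all and looked at after values were seen, the block medians ran from -0.18 to 0.18 and 140 blocks held 0 changed genes. The block from LINC03066 to TFAP2A held the most falls, 7, with 0 rises and 33 of 50 genes below 0. These were GMDS, the first enzyme of GDP-fucose synthesis, from 9.54 to 8.02, the quinone reductase gene NQO2 from 10.51 to 9.02, LYRM4, an iron-sulphur cluster assembly gene, from 10.21 to 8.86, and the RNase P subunit gene RPP40 from 10.30 to 9.01, with ECI2 at -1.07, TUBB2A at -1.07 and FARS2 at -1.02. The block with the most rises, 5, ran from LRRC37A2 to B4GALNT2 and held 1 fall, ATP5MC1, an ATP synthase subunit gene, from 11.91 to 10.82. Its rises were the 4 HOXB genes and NFE2L1, a transcription factor of proteasome genes, from 10.92 to 11.92.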
